A study of Marchantia polymorpha and Klebsormidium nitens with 56 samples.

Results

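The comparison set plants that overexpress HSFA1Y against plants that overexpress HSFA1X, both in the male wild type Tak-1 of the liverwort *Marchantia polymorpha* and both without heat. It holds 4 of the 28 RNA sequencing libraries of the first count table, and 4 of the 56 samples of the series, chosen by their group labels alone. HSFA1Y plants in Tak-1 (2 libraries) were set against HSFA1X plants in Tak-1 (2 libraries). The Tak-1 wild type without heat (2 libraries) gives the level with neither transgene, and the same pair of overexpressors in the female wild type BC3 (2 libraries each) gives the same contrast in the other sex. All of these were whole gemmalings, the young plants that grow from gemmae, 7 days old, from cultures kept in continuous light at 22 °C. Tak-1 heated at 37 °C and the knockout labelled hsfa1y in the male background, without heat, were used as sources of gene lists. The rest of the 28 libraries entered the shared statistical fit. They are the groups labelled hsfa1x and hsfb1, each with and without heat, and heated BC3 and hsfa1y. For hsfa1x the genotype field reads as overexpression, while the titles read as a knockout. This was not resolved, so the group is named by its label only. The sources used here do not give the promoter that drives the transgenes, or whether the libraries of a group come from 1 transgenic line or several. A difference between the transgenes and a difference between individual lines therefore cannot be told apart.

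Heat shock factors are transcription factors that bind heat shock elements in promoters and switch on chaperone genes when proteins unfold. In land plants the class A1 members act as master regulators of this response, and class B members lack the activation domain of class A and often act as repressors. In *M. polymorpha*, sex is set by a U chromosome in females and a V chromosome in males, and HSFA1Y and HSFA1X are the names the labels give to the 2 HSFA1 genes that were overexpressed.

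The libraries held 18890428 and 17728437 counted reads in HSFA1Y plants and 21432068 and 19643156 in HSFA1X plants, and the second HSFA1Y library was the smallest of the 28. Levels are given as CPM, the reads of a gene relative to the scaled library total, which compares a gene between samples and not one gene with another. The 2 libraries of the HSFA1Y group differed from each other by 6.11 times the counting variance, against 3.5 times in HSFA1X plants and 2.66 times in Tak-1. Of 5 oil body cell genes none was called, with a summed level of 56.5 and 54.3 CPM in HSFA1Y plants and 52.9 and 47.4 CPM in HSFA1X plants, and of 2 gemma cup genes none was called either, at 14.4 and 15.4 CPM against 15.3 and 13.6 CPM. The rhizoid list has 2 tested genes, summing to 173 and 193 CPM in HSFA1Y plants and 161 and 148 CPM in HSFA1X plants. Their median log2 change was 0.69, and the gene with the larger change was not called. The other was called higher, MpROP, a small GTPase of rhizoid tip growth (log2 0.24, edgeR adjusted p = 0.0212). That call was lost without HSFA1Y replicate 2 (log2 0.16) and without HSFA1X replicate 2 (log2 0.19). In the reproductive list, 1 of 5 genes was higher, MpRKD, a regulator of egg cells and of gemma cups (log2 0.27, adjusted p = 0.0437), and it lost its call without HSFA1Y replicate 1 (log2 0.18), HSFA1X replicate 1 (log2 0.22) or HSFA1X replicate 2 (log2 0.34). The reproductive list summed to 140.4 and 123 CPM in HSFA1Y plants and 109 and 116 CPM in HSFA1X plants. No marker of these lists was at 0 in either group, and their part in the results was not tested. In whole plants, fewer cells of a type and less RNA per cell cannot be told apart.

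The transgenes could be followed only in part. The table has 207 identifiers of the V chromosome and 0 of the U chromosome, and no row is named HSFA1X, so the level of the HSFA1X transgene was not analysed here. Among 46 V-linked genes that were tested, 3 were called, 2 higher in HSFA1Y than in HSFA1X plants (4.35%) and 1 lower (2.17%). Over all genes tested, these shares were larger, 7.09% and 9.75%. Of the 3, MpVg00470 separated the HSFA1Y libraries from the rest. It had 322 and 294 CPM in HSFA1Y plants and 48.8 and 48.7 CPM in HSFA1X plants, a 6.31-fold difference (log2 2.66 ± 0.08, SE, edgeR adjusted p = 3.19e-13). HSFA1X plants lay close to Tak-1, which had 43.1 and 44.9 CPM, and hsfa1y had 23.4 and 26.9 CPM. In the female background, 361 and 363 CPM were counted in HSFA1Y plants, against 0 reads in both HSFA1X libraries and both BC3 wild type libraries. Taking 3 reads per library as the limit that a count of 0 allows, HSFA1Y plants in BC3 were at least 2324-fold higher than HSFA1X plants in BC3. The HSFA1Y libraries of both sexes were the high ones. The reference used here gives MpVg00470 no name, so it is reported by its identifier and not as HSFA1Y itself.

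**Figure D1:**
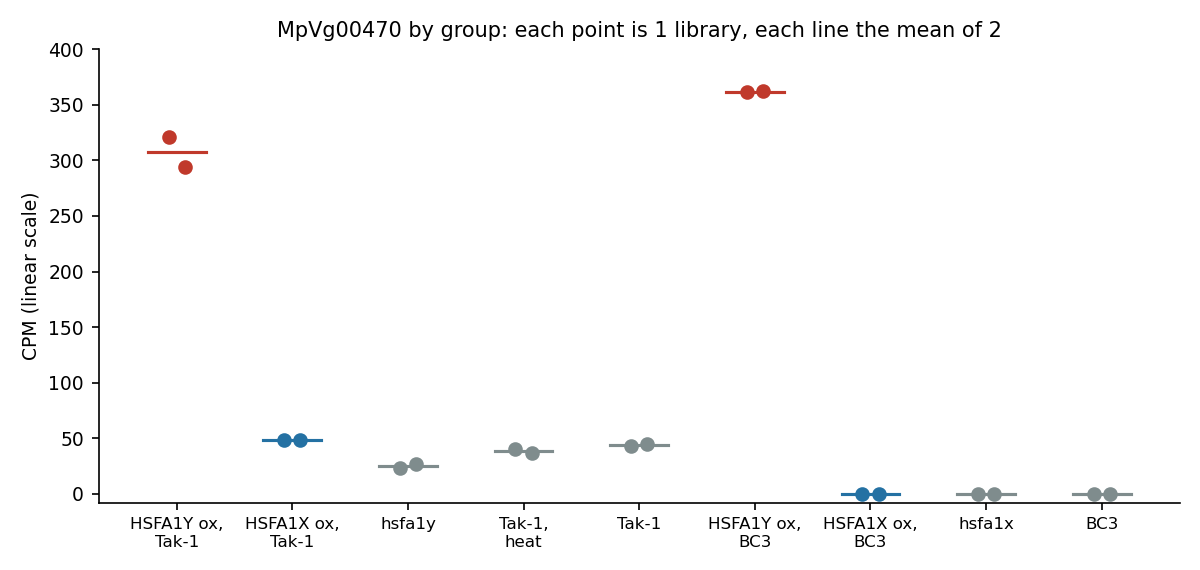
Level of the V-linked gene MpVg00470 in CPM on a linear axis, by group, with 1 point per library and a line at the mean of 2. The HSFA1Y libraries lie at 322 and 294 CPM in Tak-1 and at 361 and 363 CPM in BC3. The other male groups shown lie under 50 CPM. The HSFA1X and wild type libraries of BC3 are at 0. So are those labelled hsfa1x, whose genotype field and titles disagree.

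The other V-linked calls were at low levels. MpVg00390 had 1.83 and 1.09 CPM in HSFA1Y plants, against 0.175 and 0 CPM in HSFA1X plants, which is 56 reads against 4 and a ratio of 16 (95% counting interval 5.91 to 60.7). Tak-1 had 1.15 and 1.11 CPM, so HSFA1X plants were the low group. The edgeR adjusted p was 0.000559 for HSFA1Y over HSFA1X plants and 0.000733 for HSFA1X plants over Tak-1. MpVg00850 had 1.17 and 1.97 CPM in HSFA1Y plants and 4.51 and 3.50 CPM in HSFA1X plants (log2 -1.36 ± 0.39, adjusted p = 0.0201), and lost its call without HSFA1Y replicate 1 (log2 -1.01) or HSFA1X replicate 1 (log2 -1.16). The median log2 change over all 46 V-linked genes was 0.02, against -0.02 over all genes tested.

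Across the genome, more genes were lower than higher in HSFA1Y plants, and most differences were small. Of 20574 genes in the table, 13432 passed the filter on low counts and were tested. Higher in HSFA1Y than in HSFA1X plants were 952 genes (7.09% of those tested), and lower were 1309 (9.75%), by edgeR's quasi-likelihood test at an adjusted p below 0.05. The size of this imbalance moved with the setting. It was 1112 higher and 1188 lower with DESeq2 in place of edgeR, and 831 and 1517 without a scaling factor. Fitted on the libraries of the comparison alone, it was 1590 and 1675. The median absolute log2 change of the 2261 called genes was 0.49. At least 2-fold higher were 166 (1.24%) and at least 2-fold lower 272 (2.03%). In 2254 of the called genes the HSFA1Y and HSFA1X libraries did not overlap, but with 2 libraries a group this also held for 61.1% of all genes tested, against 16.8% called in either direction. With 1 library left out, 508 to 826 genes were higher (508 without HSFA1X replicate 1, 511 without HSFA1Y replicate 2) and 793 to 874 lower, the smaller numbers in a fit in which the lone library is assumed to vary like the other groups.

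Genes were ranked among those called, with a symbol, a mean of at least 5 CPM and no overlap between the groups. The 14 with the lowest log2 changes included 3 pathogenesis-related proteins, 2 peroxidases, a polyphenol oxidase, a lipoxygenase and a dehydrin. MpPR6c, of a family that holds protease inhibitors in flowering plants, had 1.78 and 2.24 CPM in HSFA1Y plants and 11.9 and 11.7 CPM in HSFA1X plants (log2 -2.56 ± 0.16, edgeR adjusted p = 7e-11). MpPR6a of the same family had 11.1 and 12.4 CPM in HSFA1Y plants and 27.8 and 29.6 CPM in HSFA1X plants (log2 -1.29 ± 0.10, adjusted p = 2.84e-09). MpDHN3, a dehydrin of the kind that protects cells during drying, had 5.48 and 5.68 CPM in HSFA1Y plants and 24.7 and 26.5 CPM in HSFA1X plants (log2 -2.20 ± 0.15, adjusted p = 4.18e-10). In each of these genes both HSFA1Y libraries lay below both HSFA1X libraries, which the rule for naming them required. Tak-1 was higher still, at 27.3 and 26.9 CPM for MpPR6c, 71.5 and 80.3 CPM for MpPR6a and 29.01 and 30.4 CPM for MpDHN3.

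MpCYP707A, of the P450 family that breaks down abscisic acid, had 6.19 and 5.30 CPM in HSFA1Y plants, 20.4 and 21.1 CPM in HSFA1X plants and 11.01 and 10.4 CPM in Tak-1 (log2 -1.85 ± 0.18, HSFA1Y over HSFA1X, adjusted p = 1.09e-07). MpLOX1, a lipoxygenase, which oxidises polyunsaturated fatty acids, had 14.3 and 10.6 CPM, against 39.04 and 36.3 CPM in HSFA1X plants and 42.3 and 47.4 CPM in Tak-1 (log2 -1.59 ± 0.17, adjusted p = 3.65e-07). MpPOD164, a class III peroxidase of the cell wall space, had 132 and 142 CPM in HSFA1Y plants, 320.3 and 331 CPM in HSFA1X plants and 525 and 540.1 CPM in Tak-1 (log2 -1.25 ± 0.08, adjusted p = 1.15e-10). HSFA1Y plants were the lowest of the 3 groups in each, while HSFA1X plants stood above Tak-1 for MpCYP707A and below it for MpLOX1 and MpPOD164. MpSAUR14, of the small auxin up RNA family, had 2.08 and 2.51 CPM in HSFA1Y plants and 7.92 and 9.04 CPM in HSFA1X plants (log2 -1.88 ± 0.24, adjusted p = 5.6e-06), and MpERF7, a transcription factor of the ethylene response factor family, had 8.58 and 10.4 CPM in HSFA1Y plants and 22.6 and 23.1 CPM in HSFA1X plants (log2 -1.27 ± 0.18, adjusted p = 1.34e-05). Both were highest in Tak-1, at 16.8 and 18.1 CPM for MpSAUR14 and 32.6 and 28.2 CPM for MpERF7. The other 6 of the 14 were MpPPO4 (log2 -1.50), MpZIP4 (-1.45), MpPOD161 (-1.44), MpPR1w (-1.38), MpPTB8 (-1.35) and MpDFR-like18 (-1.27). Of these, MpPR1w lost its call without HSFA1Y replicate 1 (log2 -1.05).

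Among the 14 genes with the highest log2 changes in the same ranking were 2 expansins, 2 polyphenol oxidases, 2 dioxygenases of the DOXC family and a cytokinin oxidase. MpExpansin32, one of the proteins that loosen cell walls during growth, had 89.8 and 85.97 CPM in HSFA1Y plants, 31.9 and 29.8 CPM in HSFA1X plants and 24.6 and 23.3 CPM in Tak-1 (log2 1.51 ± 0.09, HSFA1Y over HSFA1X, edgeR adjusted p = 3.3e-11). MpExpansin6 had 355 and 347 CPM in HSFA1Y plants, 157 and 166 CPM in HSFA1X plants and 60.98 and 64.5 CPM in Tak-1 (log2 1.12 ± 0.10, adjusted p = 1.56e-08). MpCKX1, of the family that degrades cytokinin, had 14.2 and 10.6 CPM in HSFA1Y plants, 5.25 and 4.47 CPM in HSFA1X plants and 2.85 and 2.42 CPM in Tak-1 (log2 1.35 ± 0.22, adjusted p = 0.000114). In these genes HSFA1Y plants were highest, HSFA1X plants next and Tak-1 lowest.

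A second pattern among the high genes had HSFA1X plants below both of the others. MpMLS5 had 54.7 and 64.9 CPM in HSFA1Y plants, 13.3 and 15.5 CPM in HSFA1X plants and 49.5 and 48.7 CPM in Tak-1 (log2 2.06 ± 0.19, adjusted p = 2.6e-08). MpPPO34, a polyphenol oxidase, an enzyme class that oxidises phenolic compounds, had 15.2 and 13.01 CPM in HSFA1Y plants, 3.19 and 4.86 CPM in HSFA1X plants and 24.5 and 23.9 CPM in Tak-1 (log2 1.82 ± 0.18, adjusted p = 6.85e-08). MpGID1L4, which resembles the gibberellin receptor of vascular plants, had 8.63 and 6.72 CPM in HSFA1Y plants, 3.28 and 2.87 CPM in HSFA1X plants and 10.2 and 11.3 CPM in Tak-1 (log2 1.32 ± 0.20, adjusted p = 4.45e-05). For MpMLS5 the HSFA1Y libraries lay above Tak-1, and for the other two they lay between HSFA1X plants and Tak-1. MpPPO36 (log2 1.04), MpDOXC6 (1.22), MpDOXC28 (1.07), MpGH19.9 of a family that includes chitinases (1.06), the proton pump MpHA11 (1.18), MpSQC2 (1.12), MpNBS-LRR6 (1.54) and MpCDC25_2 (1.18) complete the 14. Replicates disagreed for MpCDC25_2, of a family of phosphatases that activate cyclin-dependent kinases in other eukaryotes, with 14.98 and 32.9 CPM in HSFA1Y plants and 9.76 and 11.3 CPM in HSFA1X plants. Without HSFA1Y replicate 2 its log2 change was 0.51 and not called. MpHA11 lost its call without HSFA1Y replicate 2 (log2 0.99) or HSFA1X replicate 1 (log2 0.93), and MpSQC2 without either HSFA1Y library (log2 1.08 and 1.18) or HSFA1X replicate 2 (log2 0.95).

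**Figure D2:**
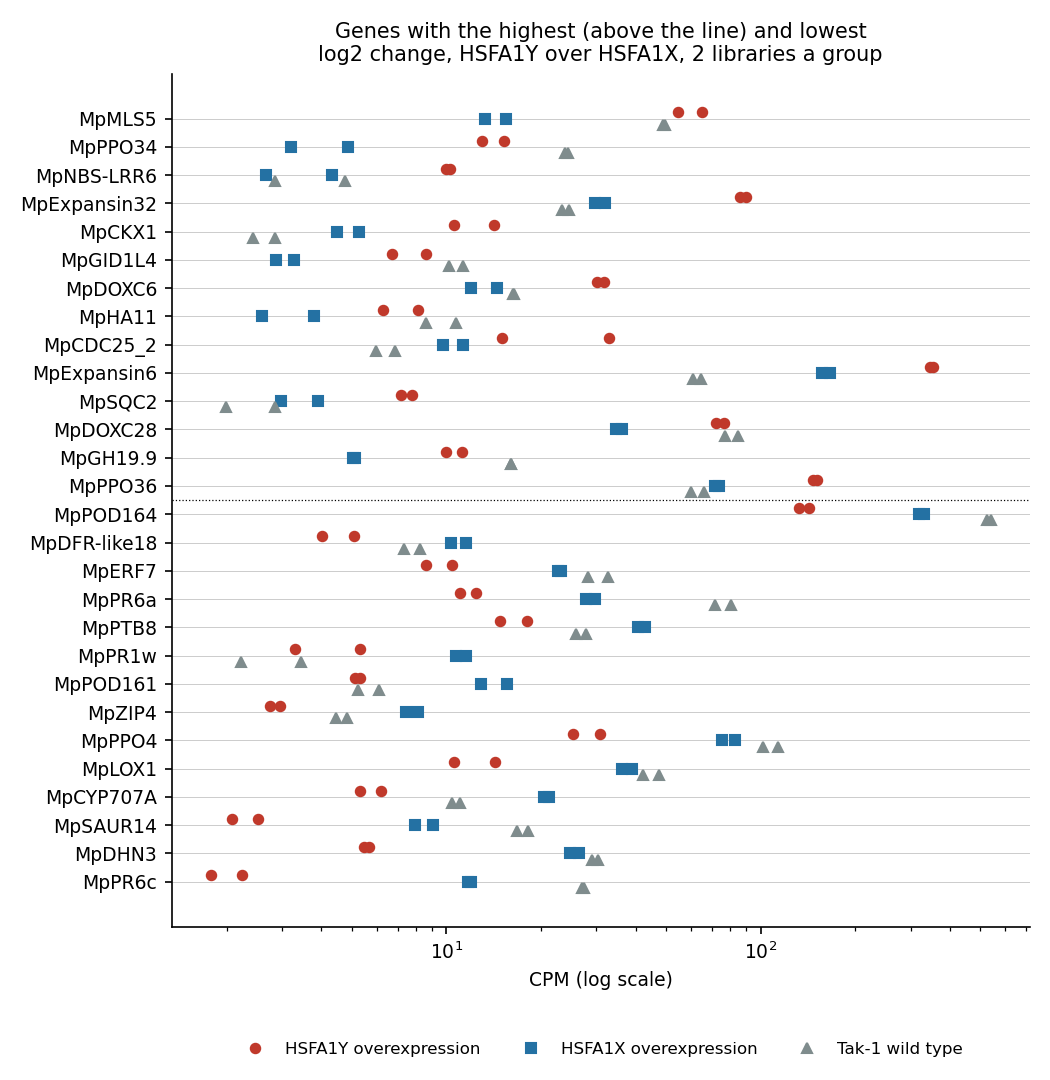
Level in CPM on a log axis of the 14 genes with the highest and the 14 with the lowest log2 change of HSFA1Y over HSFA1X, with 1 symbol per library for HSFA1Y plants, HSFA1X plants and Tak-1. They were ranked among called genes with a gene symbol, a mean of at least 5 CPM and no overlap between the groups. The genes were chosen for this difference, so their separation is a description. Tak-1 lies above both overexpressors for MpPR6c and MpPR6a, and below both for MpExpansin32, MpExpansin6 and MpCKX1.

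Among chaperone genes, 2 of 5 HSP90 genes were lower in HSFA1Y than in HSFA1X plants, against 9.75% of all genes tested. In each overexpressor 3 of 5 were higher than Tak-1, against 16.1% of all genes in HSFA1Y plants and 15.1% in HSFA1X plants. HSP90 chaperones fold signalling proteins and are classical targets of heat shock factors. MpHSP90-1 had 547 and 510.3 CPM in HSFA1Y plants, 727 and 723 CPM in HSFA1X plants and 376 and 379.7 CPM in Tak-1. HSFA1Y plants lay between the others, 1.37-fold below HSFA1X plants (log2 -0.46 ± 0.06, edgeR adjusted p = 1.17e-05). Heated Tak-1 had 5491 and 5476 CPM, against those levels in Tak-1 without heat. MpHSP90-4 had 234 and 217 CPM in HSFA1Y plants, 273 and 266 CPM in HSFA1X plants and 174 and 185 CPM in Tak-1 (log2 -0.26 ± 0.08, adjusted p = 0.0223), a call that was lost without HSFA1Y replicate 2 (log2 -0.20), HSFA1X replicate 1 (log2 -0.23) or HSFA1X replicate 2 (log2 -0.27). Over the 5 genes the median log2 change was -0.26, against -0.02 over all genes, and 0 were higher. The 3 not called were MpHSP90-2 (log2 -0.04 ± 0.08), MpHSP90-3 (-0.21 ± 0.10) and MpHSP90-5 (-0.28 ± 0.33). Their levels were 116 and 116 CPM in HSFA1Y and 122 and 116 CPM in HSFA1X plants for MpHSP90-2, 264 and 257 CPM in HSFA1Y and 311 and 293 CPM in HSFA1X plants for MpHSP90-3, and 1.42 and 1.04 CPM in HSFA1Y and 1.58 and 1.41 CPM in HSFA1X plants for MpHSP90-5. Fitted on the 4 libraries alone, 3 of the 5 were lower.

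MpHSF1, the one gene the reference annotates as a heat shock factor, had 32.6 and 29.1 CPM in HSFA1Y plants, 24.9 and 26.1 CPM in HSFA1X plants and 11.96 and 13.9 CPM in Tak-1. Its log2 change of 0.28 ± 0.13 was not called (adjusted p = 0.148), although it passed in the fit of the 18 libraries without heat (log2 0.29, adjusted p = 0.049) and in that of the 4 libraries alone (log2 0.29, adjusted p = 0.0272). Both overexpressors stood above Tak-1, by log2 1.25 ± 0.14 in HSFA1Y plants and 0.98 ± 0.14 in HSFA1X plants (adjusted p = 9.95e-08 and 5.59e-06). MpCNX, calnexin, a folding chaperone of the endoplasmic reticulum, was slightly lower in HSFA1Y plants (log2 -0.25 ± 0.06, adjusted p = 0.00786), at 425 and 411 CPM, against 499 and 498 CPM in HSFA1X plants and 463 and 484 CPM in Tak-1. The MpCNX call was lost without any of 3 libraries, with log2 -0.22 without HSFA1Y replicate 2, -0.24 without HSFA1X replicate 1 and -0.25 without HSFA1X replicate 2.

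Lists of defence and stress chemistry differed in direction between HSFA1Y and HSFA1X plants, and nearly all had members on both sides. The counts below stand against 7.09% higher and 9.75% lower among all genes tested. Members are those that passed the filter on low counts, and several families were tested only in part. Tested were 49 of 164 peroxidases, 24 of 49 pathogenesis-related proteins, 40 of 72 late embryogenesis abundant proteins, 32 of 103 cupins and 16 of 37 expansins. Antioxidant enzymes had 14 of 61 members lower (23%) and 2 higher, median log2 -0.12. Among them, MpGST9, a glutathione S-transferase, had 147 and 154 CPM in HSFA1Y plants, 287 and 315 CPM in HSFA1X plants and 87.6 and 89.7 CPM in Tak-1 (log2 -1.002 ± 0.08, adjusted p = 1.94e-09). MpGST26 had 54.1 and 50.9 CPM in HSFA1Y plants, 98.8 and 104 CPM in HSFA1X plants and 17.7 and 19.2 CPM in Tak-1 (log2 -0.95 ± 0.08, adjusted p = 7.39e-09). Both transferases were above Tak-1 in both overexpressors and highest in HSFA1X plants. MpMDHAR3, a monodehydroascorbate reductase, which recycles ascorbate, had 7.82 and 8.53 CPM in HSFA1Y plants, 15.7 and 17.3 CPM in HSFA1X plants and 11.5 and 10.6 CPM in Tak-1 (log2 -1.01 ± 0.12, adjusted p = 1.92e-06), so that Tak-1 lay between. With 1 library left out, 8 to 10 of the antioxidant genes were lower (8 without HSFA1Y replicate 2 or HSFA1X replicate 2, 9 without HSFA1X replicate 1).

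Peroxidases had 10 of 49 lower and 4 higher, with a median of 0, and dirigent proteins, which steer the coupling of phenolic radicals, 8 of 37 lower and 4 higher, median -0.30. MpDIR9 had 27.7 and 25.5 CPM in HSFA1Y plants, 58.7 and 66.5 CPM in HSFA1X plants and 155 and 151 CPM in Tak-1 (log2 -1.23 ± 0.11, adjusted p = 1.89e-08). Phenylpropanoid enzymes had 13 of 63 lower and 7 higher, median -0.06. Mp4CL1, which activates cinnamic acids at the entry of the pathway, had 55.5 and 49.6 CPM in HSFA1Y plants, 105 and 112 CPM in HSFA1X plants and 19.2 and 19.1 CPM in Tak-1 (log2 -1.05 ± 0.09, adjusted p = 9.44e-09), and MpPKS/CHS16, of the chalcone synthase family, had 56.6 and 57.1 CPM in HSFA1Y plants, 110.5 and 124 CPM in HSFA1X plants and 238 and 260.5 CPM in Tak-1 (log2 -1.04 ± 0.12, adjusted p = 8.38e-07). The 2 enzymes shared the direction between the transgenes and differed against Tak-1, above it in both overexpressors for Mp4CL1 and below it for MpPKS/CHS16. With 1 library left out, 3 to 6 dirigent genes (3 without HSFA1Y replicate 2, 4 without HSFA1Y replicate 1) and 6 to 10 phenylpropanoid genes (6 without HSFA1Y replicate 2, 7 without HSFA1Y replicate 1 or HSFA1X replicate 2) were lower. These are multigene families, and reads shared by near copies may have been split or lost, since the counting rule for them is not given in the sources used here. Members higher were 1 to 3 for peroxidases (1 without HSFA1Y replicate 2, 2 without either HSFA1X library) and 1 to 3 for dirigent proteins (1 without HSFA1Y replicate 2, 2 without HSFA1Y replicate 1 or HSFA1X replicate 2).

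Late embryogenesis abundant proteins, which protect cells in drying tissue, had 8 of 40 members lower and 4 higher, median -0.20. Beside MpDHN3, MpLEA-like50 had 18.8 and 19.8 CPM in HSFA1Y plants, 46.1 and 43.6 CPM in HSFA1X plants and 44.9 and 46.7 CPM in Tak-1 (log2 -1.21 ± 0.10, adjusted p = 6.05e-09), with HSFA1X plants at the Tak-1 level. Without HSFA1Y replicate 1 or HSFA1X replicate 2, 5 were lower, and 1 was higher without HSFA1X replicate 1 and 2 without HSFA1Y replicate 2. The 24 tested pathogenesis-related proteins had 6 lower and 4 higher with a median of -1.05. The 4 became 2 without HSFA1Y replicate 1, 1 without HSFA1X replicate 1 and 0 without HSFA1X replicate 2. Cytochromes P450 had 16 of 82 lower and 6 higher, median -0.07, among them MpCYP822-like5 at 28.9 and 24.6 CPM in HSFA1Y plants and 59 and 62.7 CPM in HSFA1X plants (log2 -1.18 ± 0.11, adjusted p = 3.4e-08). Abscisic acid signalling had 3 of 9 lower and 0 higher, median -0.12. Other lists of this kind had more members higher than lower or as many of each. Cupins had 3 of 32 higher and 1 lower, terpene synthases 3 of 14 higher and 1 lower, UDP-dependent glycosyltransferases 4 of 30 higher and 2 lower, and 2-oxoglutarate dioxygenases 3 of 25 higher and 2 lower. The chitinase and glucanase families had 8 of 62 higher and 8 lower. Polyphenol oxidases had 8 of 28 higher and 4 lower, median 0.16. Their lowest called member, MpPPO2, had 1.32 and 0.765 CPM in HSFA1Y plants, 4.86 and 6.32 CPM in HSFA1X plants and 16.8 and 16.9 CPM in Tak-1 (log2 -2.40 ± 0.38, adjusted p = 6.77e-05).

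**Figure D3:**
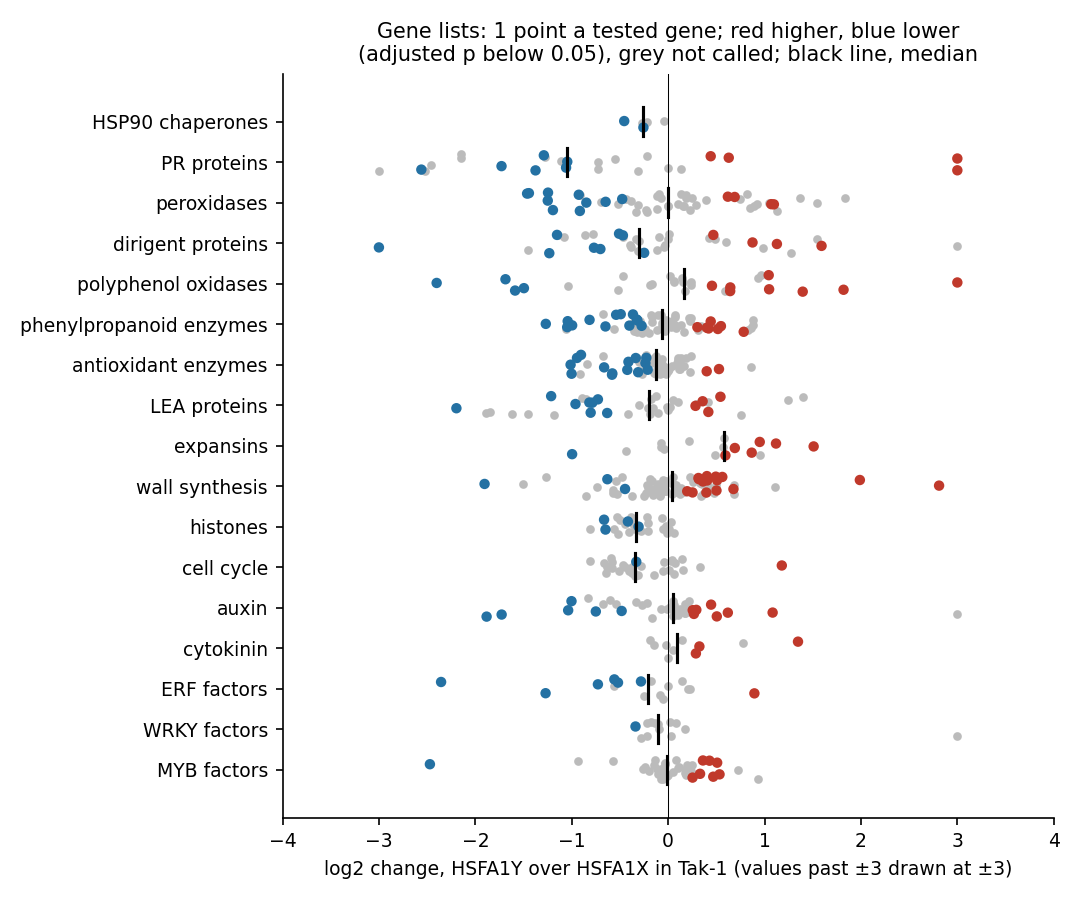
Log2 change of HSFA1Y over HSFA1X in Tak-1 for every tested member of 17 gene lists, with called members in red (higher) or blue (lower), others in grey, the list median as a black line and values past 3 drawn at 3 in either direction. Expansins lie mostly to the right (median 0.58), pathogenesis-related proteins, histones and cell cycle genes to the left (medians -1.05, -0.33 and -0.34).

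Among genes of the cell wall, more members were higher than lower in HSFA1Y plants, against 7.09% higher and 9.75% lower among all genes tested. Expansins had 6 of 16 members higher (37.5%) and 1 lower (6.25%), median log2 0.58. MpExpansin13 had 25.9 and 23.4 CPM in HSFA1Y plants, 12.8 and 12.8 CPM in HSFA1X plants and 8.60 and 9.72 CPM in Tak-1 (log2 0.95 ± 0.17, adjusted p = 0.000243). The 16 tested expansins summed to 1071 and 1027 CPM in HSFA1Y plants, 651 and 652 CPM in HSFA1X plants and 443 and 473 CPM in Tak-1. These sums include MpExpansin6 and MpExpansin32, which were named for their change. Enzymes of wall polysaccharides had 15 of 72 higher (20.8%) and 3 lower (4.17%), with a median of 0.04, close to that of all genes. MpGT37.17, of a family that holds xyloglucan fucosyltransferases, had 24.7 and 21.1 CPM in HSFA1Y plants, 14.3 and 14.4 CPM in HSFA1X plants and 10.9 and 10.3 CPM in Tak-1 (log2 0.68 ± 0.14, adjusted p = 0.0012). Without 1 library, 4 to 6 expansins (4 without HSFA1X replicate 1) and 6 to 10 wall genes were higher (6 without HSFA1X replicate 1, 10 without each of the others).

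Of 26 histone genes tested, many of which are transcribed in dividing cells, 4 were lower in HSFA1Y plants and 0 higher, median -0.33. The lower share was 15.4%, against 9.75% of all genes tested. They were MpH2A at 31.2 and 32.2 CPM in HSFA1Y plants and 51.2 and 49.3 CPM in HSFA1X plants (log2 -0.66 ± 0.22, adjusted p = 0.0413), MpH3.1b at 11.3 and 10.3 CPM in HSFA1Y and 17.8 and 16.04 CPM in HSFA1X plants (-0.65 ± 0.22), MpH2B.2 at 99.3 and 96.95 CPM in HSFA1Y and 136 and 126 CPM in HSFA1X plants (-0.42 ± 0.09) and MpH2B.1 at 144 and 162 CPM in HSFA1Y and 185 and 193 CPM in HSFA1X plants (-0.31 ± 0.07). Tak-1 had 40.9 and 34.04 CPM for MpH2A, 12.6 and 11.6 CPM for MpH3.1b, 138 and 130.4 CPM for MpH2B.2 and 172 and 159 CPM for MpH2B.1. Without 1 library the log2 changes that lost their call were -0.62 to -0.68 for MpH2A and -0.57 to -0.71 for MpH3.1b (each of the 4 libraries), -0.36 for MpH2B.2 (HSFA1X replicate 1), and -0.21 and -0.27 for MpH2B.1 (HSFA1Y replicate 1 and HSFA1X replicate 2). The number of histone genes called lower was 1 or 2 with 1 library left out, 12 without the filter on low counts and 14 in a fit of the 4 libraries alone, and no histone was called higher in any of these. Cell cycle genes had 1 of 30 lower and 1 higher (3.33% each), shares under those of all genes, with a median of -0.34. Of them, 0 were lower without HSFA1X replicate 2, 7 without the filter on low counts and 8 in a fit of the 4 libraries alone, and 0 were higher without HSFA1Y replicate 2.

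The auxin list had 7 of 37 members higher (18.9%, against 7.09% of all genes) and 6 lower (16.2%, against 9.75%), median 0.05. Beside MpSAUR14, MpSAUR12 had 2.996 and 1.48 CPM in HSFA1Y plants, 6.74 and 8.22 CPM in HSFA1X plants and 9.65 and 10.9 CPM in Tak-1 (log2 -1.73 ± 0.32, adjusted p = 0.000477), and MpGH3B, of the family that conjugates auxin to amino acids, had 3.20 and 3.06 CPM in HSFA1Y plants, 1.49 and 1.46 CPM in HSFA1X plants and 2.45 and 2.95 CPM in Tak-1 (log2 1.08 ± 0.27, adjusted p = 0.00567). The SAUR gene was lower in HSFA1Y plants and the conjugating enzyme higher, with HSFA1X plants the lowest group for MpGH3B. Without 1 library, 3 to 6 auxin genes were lower (3 without HSFA1Y replicate 2 or HSFA1X replicate 1). In the cytokinin list 3 of 10 were higher (30%, against 7.09% of all genes) and 0 lower, median 0.10. MpHPT, the phosphotransfer protein of cytokinin signalling, had 403 and 434 CPM in HSFA1Y plants, 335 and 351 CPM in HSFA1X plants and 388 and 381 CPM in Tak-1 (log2 0.29 ± 0.08, adjusted p = 0.0169), and lost its call without HSFA1Y replicate 2 (log2 0.24) or HSFA1X replicate 1 (log2 0.26).

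Among transcription factors, ethylene response factors had 6 of 16 lower and 1 higher, median -0.21 (0 higher without HSFA1Y replicate 1 or either HSFA1X library), with MpERF18 at 42.3 and 44.05 CPM in HSFA1Y plants, 70.4 and 72.6 CPM in HSFA1X plants and 81.2 and 79.8 CPM in Tak-1 (log2 -0.73 ± 0.08, adjusted p = 2.06e-07). MYB factors had 7 of 44 higher and 1 lower, median -0.01, and with 1 library left out 2 to 6 were higher (2 without HSFA1X replicate 1, 3 without HSFA1Y replicate 2 or HSFA1X replicate 2). In a fit of the 4 libraries alone 13 MYB factors were higher. Basic helix-loop-helix factors had 5 of 38 higher and 2 lower, median -0.01, with MpBHLH45 at 168 and 155 CPM in HSFA1Y plants and 112 and 109.6 CPM in HSFA1X plants (log2 0.54 ± 0.07, adjusted p = 5.21e-06). WRKY factors, known for defence control in flowering plants, had 1 of 13 lower, MpWRKY13 (log2 -0.35 ± 0.09, adjusted p = 0.011), which was not called without HSFA1Y replicate 1 (log2 -0.27) or HSFA1X replicate 2 (log2 -0.30). Against Tak-1, whose libraries both contrasts share, 9 of 13 WRKY genes were lower in HSFA1Y plants (19.5% of all genes) and 9 of 13 in HSFA1X plants (17.4%). MpWRKY13 itself had 50.3 and 54.7 CPM in HSFA1Y plants, 65 and 68.7 CPM in HSFA1X plants and 89.1 and 86.5 CPM in Tak-1. In HSFA1Y against HSFA1X plants, 37.5% of ethylene response, 2.27% of MYB, 5.26% of helix-loop-helix and 7.69% of WRKY factors were lower. Higher were 6.25%, 15.9%, 13.2% and 0% in that order. All genes tested had 9.75% lower and 7.09% higher.

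Against the wild type, each overexpressor had more calls than the pair had between them. In HSFA1Y plants 2162 genes were higher than in Tak-1 (16.1%) and 2624 lower (19.5%), and in HSFA1X plants 2034 were higher (15.1%) and 2334 lower (17.4%). These splits moved with the scaling, to 2786 higher and 2225 lower in HSFA1Y plants with upper-quartile scaling, and to 2706 higher and 1894 lower in HSFA1X plants without a scaling factor. The 952 genes higher in HSFA1Y than HSFA1X plants had a median log2 value over Tak-1 of 0.33 in HSFA1Y plants and -0.11 in HSFA1X plants. The 1309 lower genes had medians over Tak-1 of -0.47 in HSFA1Y plants and 0.07 in HSFA1X plants. By group means, Tak-1 lay between the overexpressors in 439 of the 952 higher genes, below both in 349 and above both in 164. For the 1309 lower genes it lay between in 441, above both in 598 and below both in 270. These values share libraries with the comparison and describe the called genes only.

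Lists from libraries outside the comparison were used to place it on the plant's heat response. Heat in Tak-1 raised 958 genes at least 2-fold (7.13% of those tested) and lowered 1119 (8.33%). Of the 958 heat-raised genes, 188 were lower in HSFA1Y than in HSFA1X plants (19.6%, against 9.75% of all genes) and 54 higher (5.64%, against 7.09%), median log2 -0.13. Of the 1119 heat-lowered genes, 210 were lower (18.8%) and 86 higher (7.69%), median -0.16. Without 1 library the counts of lower genes were 116 to 124 of the heat-raised and 132 to 161 of the heat-lowered, with 132 without HSFA1Y replicate 1 and 136 without HSFA1X replicate 2. The higher counts became 31 to 49 (31 without HSFA1Y replicate 2) and 50 to 64 (50 without HSFA1X replicate 1, 56 without HSFA1X replicate 2).

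The knockout labelled hsfa1y, without heat, had 653 genes higher than Tak-1 (4.86%) and 423 lower (3.15%), a split that turned to 475 higher and 773 lower without a scaling factor. Of the 653 genes higher in hsfa1y, 289 were lower in HSFA1Y than in HSFA1X plants (44.3%, against 9.75% of all genes) and 59 higher (9.04%, against 7.09%), median log2 -0.29. Of the 423 genes lower in hsfa1y, 117 were higher in HSFA1Y plants (27.7%, against 7.09%) and 76 lower (18%, against 9.75%), median 0.06. MpPR6a shows the first case, at 11.1 and 12.4 CPM in HSFA1Y plants, 27.8 and 29.6 CPM in HSFA1X plants, 255 and 228 CPM in hsfa1y and 71.5 and 80.3 CPM in Tak-1. MpExpansin32 shows the second, at 89.8 and 85.97 CPM in HSFA1Y plants, 31.9 and 29.8 CPM in HSFA1X plants, 10.7 and 14.1 CPM in hsfa1y and 24.6 and 23.3 CPM in Tak-1. In BC3, 74 of the 653 genes were higher in HSFA1Y than in HSFA1X plants (11.3%) and 58 lower (8.88%). Of the 423, 14 were higher there (3.31%) and 49 lower (11.6%). All genes had 2.72% and 4.11%. Against Tak-1, whose libraries also gave the lists, 476 of the 653 were lower in HSFA1Y plants (72.9%, against 19.5% of all genes). In HSFA1X plants 395 were lower (60.5%, against 17.4%). Higher than Tak-1 were 53 in HSFA1Y plants and 62 in HSFA1X plants. With 1 library left out, the 289 became 204 to 243, the 117 became 83 to 97, the 59 became 37 to 51 (37 without HSFA1X replicate 1) and the 76 became 48 to 52.

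In the fit of all 28 libraries fewer genes were called in the female background, and most of the Tak-1 calls had no call there. In BC3, 366 genes were higher in HSFA1Y than in HSFA1X plants (2.72%) and 552 lower (4.11%). This split turned to 660 higher and 393 lower without a scaling factor. Fitted on the libraries of each comparison alone, the numbers were similar, 1547 higher and 1725 lower in BC3 and 1590 and 1675 in Tak-1. The counts that follow are from the fit of all 28 libraries. Of the 952 genes higher in Tak-1, 19 were higher in BC3 too, 153 lower and 780 not called. Among the 1309 genes lower in Tak-1, 150 were higher in BC3, 48 lower and 1111 not called. Of the 366 genes higher in BC3, 19 were higher in Tak-1 (5.19%) and 150 lower (41%), and of the 552 lower in BC3, 153 were higher (27.7%) and 48 lower (8.7%). The contrasts share no library. Across the 13432 genes their log2 changes had Pearson's r = -0.11 and Spearman's rho = -0.24, which describes these 8 libraries and is not a test, since genes are not independent and all libraries were scaled together. The difference between the contrasts was tested directly. It was higher in Tak-1 than in BC3 for 1213 genes (9.03%) and lower for 1452 (10.8%), and without a scaling factor for 863 and 2026.

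**Figure D4:**
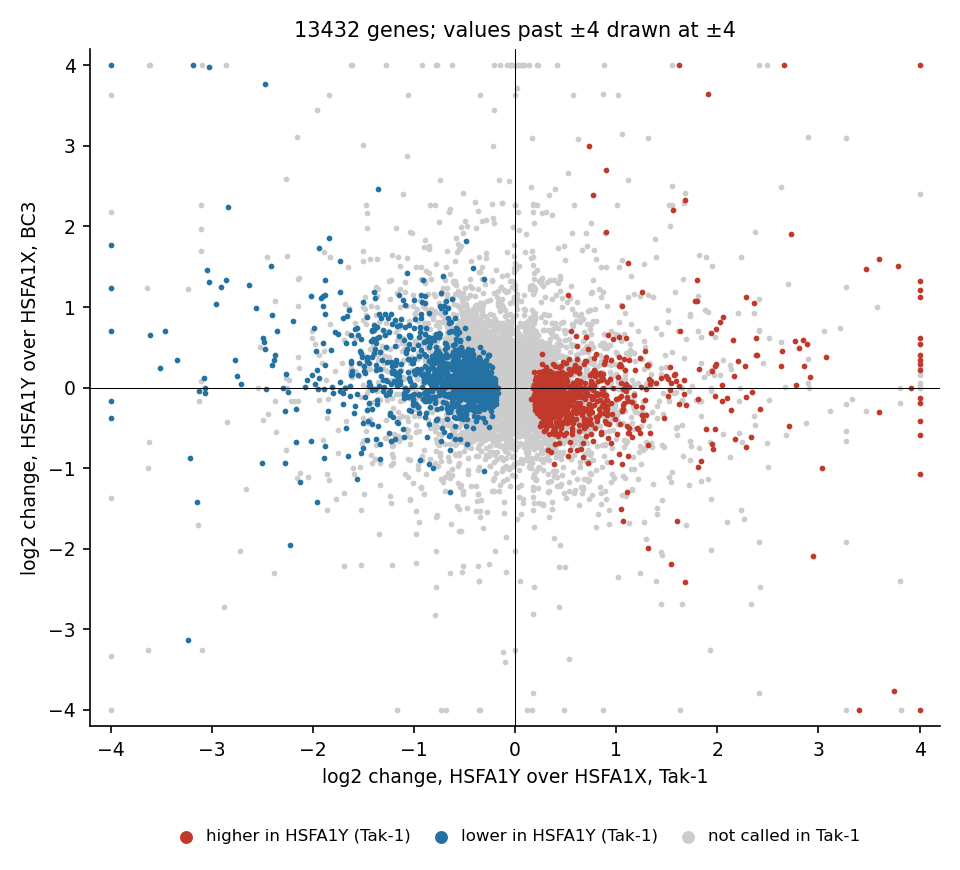
Log2 change of HSFA1Y over HSFA1X in Tak-1 (horizontal) and in BC3 (vertical), with 1 point for each of 13432 genes, coloured by the call in Tak-1 and with values past 4 drawn at 4. The called genes spread along the horizontal axis with no rising diagonal, and 153 of the 952 genes higher in Tak-1 were lower in BC3.

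MpGST9 was lower in HSFA1Y than in HSFA1X plants in Tak-1 and higher in BC3, at 194 and 205 CPM in HSFA1Y and 117 and 122 CPM in HSFA1X plants of BC3 (log2 0.74 ± 0.08), and the difference between backgrounds was -1.74 ± 0.11 (edgeR adjusted p = 1.36e-10). MpExpansin6 turned the other way, to 206 and 209.9 CPM in HSFA1Y and 310.2 and 305 CPM in HSFA1X plants of BC3 (log2 -0.56 ± 0.10, difference 1.68 ± 0.14, adjusted p = 7.67e-09). Both genes were named for their change in Tak-1, whose libraries the test of the difference also uses. MpHSF1 was lower in HSFA1Y plants of BC3, at 29.3 and 27.8 CPM against 44.5 and 42.1 CPM (log2 -0.60 ± 0.12, adjusted p = 0.0041), and differed between backgrounds by 0.88 ± 0.18 (adjusted p = 0.00112). Histones had 8 of 26 higher (30.8%, against 2.72% of all genes) and 0 lower in BC3. In Tak-1 they had 0 higher and 4 lower (15.4%, against 9.75% of all genes). The difference was lower in Tak-1 for 14 of 26 (53.8%, against 10.8% of all genes). MpHSP90-1, called in Tak-1, had a log2 change of -0.10 ± 0.06 in BC3 (adjusted p = 0.369) and a difference of -0.36 ± 0.09 (adjusted p = 0.00584). MpGST26 was lower in HSFA1Y plants in BC3 as well (log2 -0.90 ± 0.08), at 49.1 and 47.4 CPM in HSFA1Y and 88.8 and 91.9 CPM in HSFA1X plants, and the difference between backgrounds was -0.04 ± 0.11 (adjusted p = 0.845).

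The largest changes were in genes without a name. Mp4g14850 had 0 reads in both HSFA1Y libraries and 985 reads in the HSFA1X libraries, 23.1 and 22.2 CPM, and was also at 0 in Tak-1 and in hsfa1y. Against a limit of 3 reads per library, HSFA1Y plants were at least 143-fold lower than HSFA1X plants. In BC3 it had 0.0428 and 0.0501 CPM in HSFA1Y and 0.0520 and 0 CPM in HSFA1X plants; HSFA1X plants in Tak-1 stood alone at the high end of these groups. Mp6g10280 was the reverse, with 11.7 and 12.1 CPM in HSFA1Y plants, 0.0438 and 0 CPM in HSFA1X plants (1 read in all) and 6.20 and 6.62 CPM in Tak-1. The ratio of HSFA1Y to HSFA1X plants was 518, with a 95% counting interval of 92.4 to 20500. In BC3 it had 13.6 and 11.8 CPM in HSFA1Y and 18.2 and 15.8 CPM in HSFA1X plants, and HSFA1X plants in Tak-1 stood alone at the low end of these groups.

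Mp7g07370 had 8.63 and 9.02 CPM in HSFA1Y plants and 0.744 and 1.95 CPM in HSFA1X plants (log2 2.73 ± 0.52, adjusted p = 0.00141), and in BC3 2.61 and 7.42 CPM in HSFA1Y and 0.729 and 1.92 CPM in HSFA1X plants, while Tak-1, BC3 and hsfa1y were at 0. It was thus counted in each of the 4 overexpression groups. Mp1g17680 was likewise low in Tak-1 (0.350 and 0.387 CPM), with 1.78 and 0.765 CPM in HSFA1Y plants and 12.6 and 10.1 CPM in HSFA1X plants (log2 -3.14 ± 0.37, adjusted p = 1.39e-06). By the same rule, the others were Mp3g24700, higher in HSFA1Y plants (log2 2.38 ± 0.24), and Mp4g17360 and Mp2g02200, lower (log2 -2.77 ± 0.28 and -2.63 ± 0.14). Mp2g02200 had 9.04 and 10.3 CPM in HSFA1Y plants, 60.3 and 58.9 CPM in HSFA1X plants and 63.4 and 64.6 CPM in Tak-1, and turned round in BC3, at 22.8 and 25.5 CPM in HSFA1Y and 8.64 and 11.2 CPM in HSFA1X plants.

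A run of 9 neighbouring identifiers on chromosome 3, from Mp3g09160 to Mp3g09240, was higher in HSFA1Y plants throughout, and was picked out after its values were seen. It includes MpNBS-LRR6, of the family of intracellular immune receptors, and MpNPF9, of the nitrate and peptide transporter family. MpNBS-LRR6 had 10 and 10.3 CPM in HSFA1Y plants and 2.67 and 4.33 CPM in HSFA1X plants (log2 1.54 ± 0.29, edgeR adjusted p = 0.000478), 4.75 and 2.85 CPM in Tak-1 and 13.2 and 11.4 CPM in hsfa1y. In BC3 the order was the opposite, with 2.95 and 1.96 CPM in HSFA1Y plants and 10.98 and 11.6 CPM in HSFA1X plants. Mp3g09220 had 27.2 and 24.9 CPM in HSFA1Y plants and 7.66 and 8.65 CPM in HSFA1X plants (log2 1.68 ± 0.18, adjusted p = 4.38e-07), and 5.95 and 4.91 CPM in HSFA1Y and 28.6 and 29.7 CPM in HSFA1X plants of BC3. For the 8 identifiers from Mp3g09160 to Mp3g09230, HSFA1Y plants in Tak-1, hsfa1y and HSFA1X plants in BC3 were the high groups without heat by their means, and HSFA1X plants in Tak-1, Tak-1, HSFA1Y plants in BC3 and BC3 the low ones. The order of HSFA1Y and HSFA1X plants in these 8 was therefore opposite in the 2 backgrounds. On the near side, MpNBS-LRR5 was lower in HSFA1Y plants (log2 -0.40, adjusted p = 0.0265), and Mp3g09130 and Mp3g09140 were not called. On the far side, Mp3g09250 was not called, Mp3g09280 was higher in HSFA1Y plants (log2 1.95, adjusted p = 0.0284) and Mp3g09290 was lower (log2 -1.56, adjusted p = 1.12e-05). Log2 changes in the run were 0.85 for Mp3g09160, 1.60 for Mp3g09170, 3.75 for Mp3g09180, 1.31 for Mp3g09190, 3.40 for Mp3g09210, 4.92 for Mp3g09230 and 2.33 for MpNPF9. Mp3g09180, Mp3g09210 and Mp3g09230 had mean levels of 0.117, 0.190 and 0.0438 CPM in HSFA1X plants, a few reads, so their fitted changes are imprecise.

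**Figure D5:**
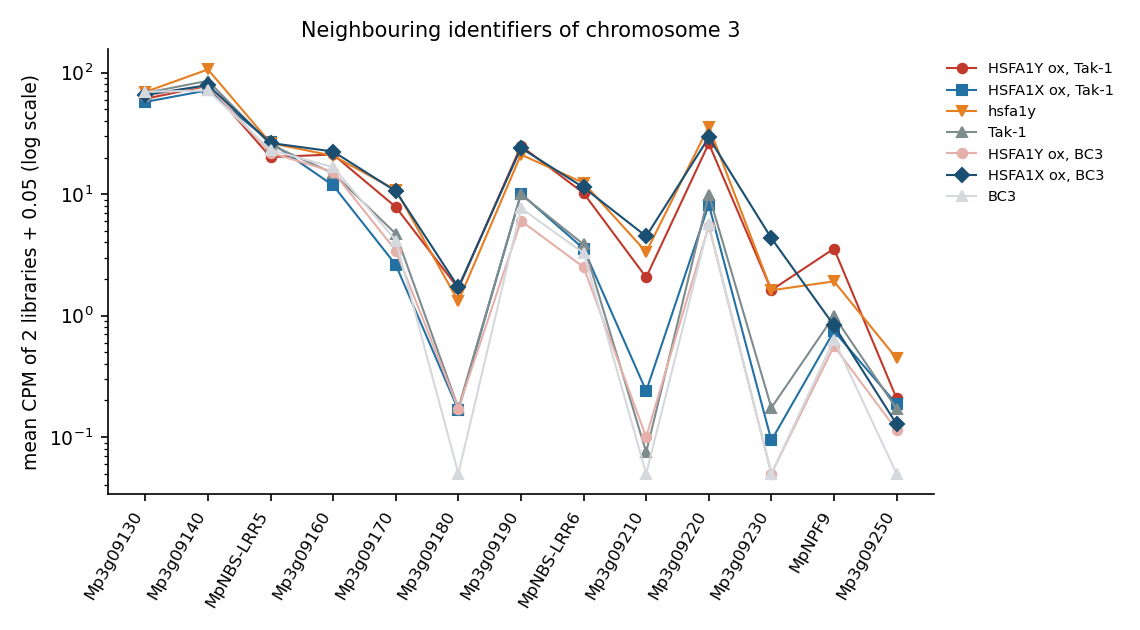
Mean CPM of 2 libraries plus 0.05, on a log axis, for 13 neighbouring identifiers of chromosome 3 in their order, by group. From Mp3g09160 to Mp3g09230 the lines for HSFA1Y plants in Tak-1, hsfa1y and HSFA1X plants in BC3 lie above the other 4. Levels compare within an identifier.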

How the data were processed

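The deposited table holds raw read counts per gene, made by the authors, for 28 libraries in 14 groups of 2. Per the labels' protocols, the RNeasy Plant Mini Kit gave the RNA and a NovaSeq instrument read the libraries. The submitters' processing notes name STAR without a version. The counting program, its treatment of strand and of reads with several matches, and the genome build were not given in any source used here. No header or label ties a count to a normalisation, and the deposited counts were used as they stand.

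Of 20575 lines, 1 identifier had 2 lines, which were summed, leaving 20574 genes. Genes kept by edgeR's default expression filter (13432, holding 99.98% of reads) were scaled by TMM and fitted with a mean per group over all 28 libraries in edgeR 4.0.16 (R 4.3.3, with limma 3.58.1). The quasi-likelihood F test gave p-values, adjusted by Benjamini and Hochberg over all genes tested, and a gene was called below 0.05. Errors of log2 changes are SE. The same numbers of replicates pair no samples across groups, and p-values measure the spread between libraries that the series' design text calls biological replicates, without saying whether lines or cultures were separate. Intervals and limits for 0 reads cover counting error only. Alternatives were DESeq2 1.42.0, other scalings and filters, other sets of libraries, the replicate block and leaving out 1 overexpressor library.

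Named genes were, among genes with a symbol, a mean of at least 5 CPM and no overlap between the groups, the 14 highest and 14 lowest called, the 4 highest and 4 lowest without a symbol, called V-linked genes, up to 4 members of each list with the largest absolute changes, all HSP90 genes and MpHSF1. Symbols came from RefSeq (assembly MpTak2_v7.1) by locus tag, for 3091 genes, and the match rests on identifiers alone. Members and lists were chosen with earlier results of these data known, and list patterns were adjusted once the symbols had been seen. Sequences were not used here.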

Additional observations from a re-analysis of the deposited data

Results flagged for a closer look

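The HSFA1Y over HSFA1X contrast differed between Tak-1 and BC3 for many genes, by edgeR's test of the difference itself. The log2 contrast was higher in Tak-1 than in BC3 for 1213 genes and lower for 1452.

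Values of that difference, as log2 in Tak-1 minus log2 in BC3, follow for the genes named above that passed the test at an adjusted p below 0.05. Most of these genes were named for their change in Tak-1, and the test uses the same Tak-1 libraries. Passing it, with the sign of the Tak-1 change, was therefore partly set by the choice of genes, and the values are a description. Among genes with a lower contrast in Tak-1, the larger differences were -3.9 for Mp2g02200, -3.54 for MpPR6c, -3.3 for MpPPO2, -3.11 for Mp4g17360, -3.02 for MpDHN3, -2.92 for MpSAUR12, -2.8 for MpSAUR14, -2.2 for MpPR6a, -1.74 for MpGST9, -1.72 for Mp1g17680, -1.71 for MpPPO4, -1.69 for MpPKS/CHS16, -1.65 for MpH2A, -1.59 for MpDFR-like18, -1.56 for MpCYP707A and -1.52 for MpPOD161. Smaller ones were -1.48 for MpLEA-like50, -1.47 for MpZIP4, -1.45 for MpH3.1b, -1.37 for MpPTB8, -1.35 for MpERF7, -1.27 for MpLOX1, -1.19 for MpDIR9, -1.16 for MpPOD164, -1.07 for MpERF18, -0.81 for MpMDHAR3, -0.77 for Mp4CL1, -0.68 for MpH2B.2, -0.54 for MpCYP822-like5, -0.54 for MpHSP90-3, -0.54 for MpHSP90-4, -0.36 for MpHSP90-1 and -0.26 for MpCNX. Among genes with a higher contrast in Tak-1, they were 0.3 for MpROP, 0.73 for MpBHLH45, 0.82 for MpHPT, 0.88 for MpHSF1, 0.97 for MpGT37.17, 1.03 for MpGID1L4, 1.05 for MpGH3B, 1.09 for MpDOXC28, 1.15 for MpPPO36, 1.19 for MpMLS5 and 1.26 for MpCKX1. The larger of these were 1.27 for MpCDC25_2, 1.4 for MpExpansin32, 1.41 for Mp3g09160, 1.59 for MpPPO34, 1.68 for MpExpansin6, 1.73 for MpDOXC6, 1.77 for Mp3g24700, 2.94 for MpNPF9, 3.25 for Mp3g09170, 3.3 for Mp3g09190, 3.73 for MpNBS-LRR6 and 4.1 for Mp3g09220. Where a group had 0 or a few reads the fitted difference depends on the prior count and is no bound, which holds for -13.21 for MpVg00470, -12.57 for Mp4g14850, 7.52 for Mp3g09180, 9.1 for Mp6g10280, 9.8 for Mp3g09210 and 14.39 for Mp3g09230. The causes of these differences were not tested, and individual lines, sex and background cannot be told apart.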

How the results depend on the processing

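No called gene among those named changed direction under any alternative. MpHSP90-2, which was not called, moved to a log2 value of 0.007 without HSFA1X replicate 1. Over 76 genes and 8 other settings, 599 of 608 values kept their side of the threshold, 6 lost their call and 3 gained one, and with 1 library left out 269 of 304 kept it and 35 lost it. Calls lost under another setting were those of MpH2A with DESeq2 and upper-quartile scaling, MpH3.1b with upper-quartile scaling, MpRKD without scaling and with upper-quartile scaling, and MpROP without scaling. The numbers of called genes moved more. The cause was not tested.

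Fitting the libraries of a comparison alone gave 1590 genes higher and 1675 lower in HSFA1Y than HSFA1X plants in Tak-1, and 1547 and 1725 in BC3. It raised the genes with a higher difference between backgrounds to 2117, and those higher in HSFA1X plants than Tak-1 to 3096. Without scaling, 660 genes were higher in BC3 and 773 lower in hsfa1y, and without the filter 717 were higher in BC3. Heat calls in Tak-1 without scaling were 2782 higher and 4181 lower, against 3442 and 3423. Requiring a 2-fold change left 166 higher and 272 lower in Tak-1, 91 and 50 in BC3, 226 and 552 for the difference, 492 and 860 for HSFA1Y over Tak-1, 449 and 609 for HSFA1X over Tak-1, 958 and 1119 for heat and 142 and 48 for hsfa1y. Leaving out 1 library gave 508 to 826 higher and 793 to 874 lower in Tak-1, 115 to 176 and 154 to 259 in BC3, and 872 to 1125 and 900 to 1055 for the difference. It gave 1597 to 1829 higher and 1998 to 2046 lower for HSFA1Y over Tak-1, and 1394 to 1426 and 1654 to 1790 for HSFA1X over Tak-1, where the library left out was an overexpressor's. The Tak-1, heat and hsfa1y libraries were not left out in turn.

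Same-numbered replicates of the 2 overexpressors did not deviate together (correlations of 0.001 in Tak-1 and 0.012 in BC3), so the numbers were not read as pairs. With the replicate block, 1010 genes were higher and 1358 lower in Tak-1, 391 and 575 in BC3, 1260 and 1489 for the difference, 2196 and 2673 for HSFA1Y over Tak-1, 2076 and 2412 for HSFA1X over Tak-1, 3470 and 3458 for heat and 676 and 447 for hsfa1y. With 2 libraries a group, low genes such as MpVg00390 are limited by depth.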
